A study of Mus musculus with 6 samples.

Results

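The genes described here are 40 neighbours of Bax on mouse chromosome 7, out of 27998 genes in the deposited count matrix. The members were chosen by their place on the chromosome and on differences between Bax genotypes seen earlier in the counts of these libraries, so their differences between genotypes are given as descriptions with no p-value, and counts of members called by a test stand only beside the same share over all genes. Of the 40, 38 lie within 1 Mb of Bax, 27 on one side of it and 11 on the other, and 2 (Slc17a6 and Gas2) lie near 52 Mb, at 6155 and 6395 kb from it. Bax itself is used only as the reference.

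The study profiled single cells of mouse retina at embryonic day 14 in droplets, counting tags from the 3′ end of each transcript. Atoh7 is a transcription factor that retinal progenitors need to make ganglion cells, and Bax is a pore-forming protein through which many developing neurons die, so the study's labels set a loss of Atoh7 beside a loss of Bax. There were 3 groups of 2 libraries. In the group labelled Bax het Atoh7 null (here the heterozygotes), Bax was heterozygous and Atoh7 was null. In the group labelled Bax null Atoh7 null (here the double nulls), both genes were null. In the group labelled Bax null, Bax was null and Atoh7 was wild type. No library of the 6 had Bax wild type, so every group carried at least 1 mutant Bax allele. The labels give neither the alleles nor the strain that they were made in, nor whether the replicates came from separate embryos or pools. P-values between groups therefore measure only the spread between these libraries. Those that compare cell types come from fits with a term for each library. They measure the scatter of the types within these libraries.

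An allele made in embryonic stem cells of one mouse strain and crossed into another keeps a stretch of its original chromosome on both sides of the mutation. Genes in that stretch then differ between mutant and control animals by strain sequence as well as by the mutation, and a cassette in the mutant gene can also alter the transcription of its neighbours. A difference of either kind is carried in the DNA of every cell, whereas a response to the loss of the protein may appear only in cells that use it. The listed genes were followed through each of the authors' 5 cell types: retinal progenitor cells (RPCs), neurogenic cells, cones, horizontal cells and ganglion cells.

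The 6 libraries held 67050 cells with totals of 22463515 to 66594431 unique molecular identifiers (UMIs, 1 per captured transcript molecule), and the median cell had 1634 to 6804. Of 29 markers of the authors' types, 27 were highest in the type they mark, and the 2 exceptions were neurogenic markers. The list for horizontal cells held markers of horizontal and amacrine cells together, so it does not tell these apart. Of that list Tfap2b and Ptf1a were the highest in the cells so labelled, above Prox1, Onecut1 and Lhx1. The name horizontal cells is used here as the authors' label only. Atoh7 had no UMI in the 4 Atoh7 null libraries and at 5.96 and 6.88 CPM (a gene's UMIs scaled to the same library total of 1e6) in the Bax null libraries. The Bax null libraries stood apart as a pair: mitochondrial transcripts made up 3.80% and 3.90% of their UMIs against 1.06% to 1.15% in the other 4, and mt-Atp6 reached 8740 and 9020 CPM against 3.74 to 4.55 CPM. A list of 10 markers of other cells (pigment epithelium, blood, endothelium, microglia, lens) summed to 633 and 527 CPM in the Bax null libraries. With replicate 1 first, it summed to 25.1 and 3.67 CPM in the heterozygotes and to 48.3 and 3.78 CPM in the double nulls. Most of the sum in Bax null came from the red cell genes Hbb-y, at 593 and 492 CPM, and Hba-x, at 35.0 and 29.9 CPM. Each marker of the other kinds of cell was at most 2.21 CPM in every library. This split of the libraries and the Bax null group cannot be told apart. The comparison of the double nulls with the heterozygotes lies on one side of it. Within these groups Hbb-y set the replicates apart. It measured 19.8 CPM in the heterozygotes and 42.6 CPM in the double nulls in replicate 1, and 0 and 0.712 CPM in replicate 2.

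The replicates of the double nulls shared 2596 cell barcodes, 22.0% of the smaller library, where every other pair of libraries shared 126 to 223. Cells with a shared barcode held a median of 1187.5 UMIs in replicate 1 and 2982 in replicate 2, with a ratio of 0.380 (quartiles 0.372 and 0.390), and 89.4% of them had the same cell type in each. Those cells are 17.6% of replicate 1, and the main values of Ftl1, Bax, Slc17a6 and Gas2 that rest on it are also given without them.

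Ftl1 encodes the light chain of ferritin, the shell in which cells store iron; the light chain helps iron to settle into the core while the heavy chain, Fth1, oxidises it. It is the nearest listed gene to Bax, on the same strand, and begins 1813 bases downstream of it (chromosome 7, 45457944 to 45459884, GRCm38). Over all cells Ftl1 stood at 1682 and 1272 CPM in the heterozygotes, at 92.9 and 143.6 CPM in the Bax null group, and at 494 and 40.3 CPM in the double nulls. Both libraries of the heterozygotes lay above the 4 others, and the libraries of the double nulls lay on either side of the Bax null pair. The Ftl1 level of the Bax null pair is uncertain because of a copy of the gene described below. Bax took the same order among the groups: 143.5 and 107.7 CPM in the heterozygotes, 17.1 and 14.99 CPM in the Bax null group, and 47.7 and 10.996 CPM in the double nulls. Here too the library labelled as replicate 1 of Bax null Atoh7 null lay between the others labelled Bax null and the heterozygotes. The labels do not say why. Whether the counted 3′ tags of Bax lie outside the deleted part of the gene is not given in the sources used here, so the Bax level does not by itself check the genotype.

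The log2 difference of Ftl1 between the double nulls and the heterozygotes was -2.51 (SE 0.89) over all cells, and that of Bax was -2.13 (SE 0.53). Leaving out replicate 1 of the double nulls moved the Ftl1 difference to -5.36, and leaving out replicate 2 moved it to -1.62. Leaving out only the shared barcodes moved it to -2.37, with replicate 1 at 543 CPM. As a share of the mean of the heterozygotes, Ftl1 was at 33.4% in replicate 1 and 2.73% in replicate 2, where Bax was at 37.9% and 8.75%.

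The difference in Ftl1 was present in each of the 5 cell types. In RPCs Ftl1 measured 1465 and 1050 CPM in the heterozygotes against 425 and 38.5 CPM in the double nulls. In neurogenic cells it measured 1668 and 1224 CPM against 507 and 36.2 CPM, and in cones 2560 and 1853 CPM against 766 and 48.3 CPM. In horizontal cells the values were 2447 and 1884 CPM against 827 and 43.5 CPM, and in ganglion cells 2969 and 2191 CPM against 791 and 54.9 CPM. Without the shared barcodes replicate 1 of the double nulls measured 470 CPM in RPCs, 548 CPM in neurogenic cells, 821 CPM in cones, 899 CPM in horizontal cells and 879 CPM in ganglion cells. The libraries kept the same order in all 5 types, and the log2 differences ran from -2.35 in horizontal cells to -2.70 in ganglion cells. The departures of the Ftl1 difference from that in RPCs were -0.01 in neurogenic cells, -0.05 in cones, 0.06 in horizontal cells and -0.25 in ganglion cells on the log2 scale.

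**Figure D1:**
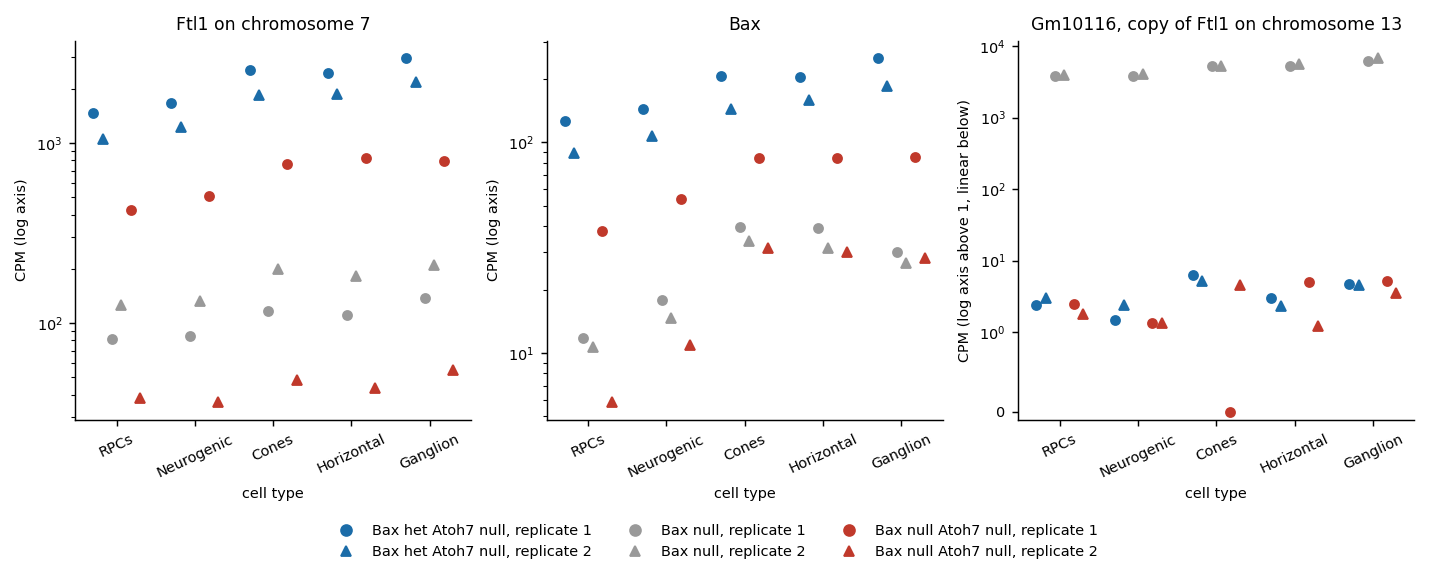
CPM of Ftl1, Bax and the chromosome 13 copy of Ftl1 (y axes, logarithmic; linear below 1 in the right panel) in 5 cell types (x axis), 1 point per library. Ftl1 and Bax lie highest in the blue heterozygous libraries of every type with the red Bax null Atoh7 null replicates far apart, while the copy is high only in the grey Bax null libraries. The Ftl1 level of the grey libraries is therefore uncertain.

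Ftl1 has a near-identical copy, Gm10116 (Ftl1-ps1) on chromosome 13 at 74399694 to 74407346. Its longest match to the Ftl1 transcript covered 910 bases with 906 identical, and the last 100 bases of Ftl1, where 3′ tags fall, were identical in all 100. Gm10116 stood at 2.57 and 3.08 CPM in the heterozygotes, at 2.45 and 1.96 CPM in the double nulls, and at 4247 and 4489 CPM in Bax null. Reads of the pair could be counted to either gene, so the Ftl1 level of the Bax null libraries is uncertain: the sum of both was 4340 and 4633 CPM there, above the sums of 1684 and 1275 CPM in the heterozygotes. Comparisons of Ftl1 that involve Bax null are therefore not read as differences in the gene. Within the other 4 libraries the copy was at 1.96 to 3.08 CPM, and the sums in the double nulls, 496 and 42.3 CPM, kept the order of Ftl1 alone.

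The 250 bases upstream of the annotated start of Ftl1 are shown because of the size of its difference. Of the listed genes fitted in all 5 types, it alone had a log2 difference of at least 1 in size in each. They lie at chr7:45459887-45460136 on the minus strand (RefSeq, GRCm38.p6), and the capitals mark the letters CCAAT read on either strand, a motif bound by the general factor NF-Y.

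Ftl1: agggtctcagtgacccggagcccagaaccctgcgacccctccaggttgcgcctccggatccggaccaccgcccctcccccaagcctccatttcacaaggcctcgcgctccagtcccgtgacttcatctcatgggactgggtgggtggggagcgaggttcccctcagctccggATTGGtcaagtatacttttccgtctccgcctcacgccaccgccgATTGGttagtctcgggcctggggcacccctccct

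There were 2 matches, starting 78 and 34 bases before the start and not overlapping. The same letters occurred in 33.8% of 32851 promoter windows of that length and in 15 of the 36 listed genes with a window. The letters TGANNNNGC, the core of the antioxidant response element through which ferritin genes are known to respond to oxidative stress, did not occur in the Ftl1 window on either strand and occurred in 35.2% of all windows.

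The library labelled as replicate 1 of Bax null Atoh7 null differed from replicate 2 far more in Ftl1 and Bax than in the other listed genes of at least 20 CPM. Over all cells Ftl1 was 12.3 times as high in replicate 1 as in replicate 2, and 13.5 times as high without the shared barcodes; Bax was 4.34 times as high, and 4.69 times without them. Among the other 16 listed genes with at least 20 CPM in their highest group, the same ratio ran from 0.714 to 1.12 with a median of 0.932. The largest after Ftl1 were Ap2a1, a subunit of the clathrin adaptor, at 30.7 and 27.4 CPM, and Nucb1, a calcium-binding Golgi protein, at 24.9 and 22.3 CPM. The smallest were Snrnp70, a protein of the U1 splicing particle, at 143.0 and 200.4 CPM, Nosip, a ubiquitin ligase, at 53.6 and 67.8 CPM, and Ruvbl2, an ATPase of chromatin remodelling complexes, at 107 and 134 CPM. In the heterozygotes the ratio of replicate 1 to replicate 2 was 1.32 for Ftl1 and ran from 0.813 to 1.43 for the other 16. One library against another allows no test of these ratios.

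Within that library only part of the cells had an Ftl1 UMI. An Ftl1 UMI was found in 47.6% of its cells (5779 of 12134 with the shared barcodes left out; Wilson 95% interval 46.7% to 48.5%), or in 40.6% of 14730 cells with them kept, against 95.4% and 90.3% in the heterozygotes and 7.30% in replicate 2. With each cell set to 1000 UMIs the shares were 33.2% in replicate 1, 3.93% in replicate 2, and 77.2% and 69.5% in the heterozygotes, in the same order as without thinning. At that depth 264 cells of replicate 1 and 1261 of replicate 2 were left out, and none of the heterozygotes. The Bax null libraries had an Ftl1 UMI in 41.6% and 59.9% of cells, and in 9.07% and 13.5% at 1000 UMIs. Reads there could be counted to Gm10116, at 4247 and 4489 CPM, so these shares are not read as Ftl1 levels. A cut at 1 UMI splits the cells of any library and does not by itself show separate sets of cells. The unthinned share in replicate 1 of the double nulls was 46.8% of RPCs, 47.7% of neurogenic cells, 47.9% of cones, 51.2% of ganglion cells and 53.9% of horizontal cells. At 1000 UMIs the shares lay further apart, at 31.1%, 33.5%, 39.6%, 40.1% and 44.0% in the same order. Whether this library holds cells of more than 1 Bax genotype is not given in the labels and was not tested. Its pooled CPM of Ftl1 and Bax, and the differences of the double nulls that use them, are means over these cells and need not be the level of any 1 genotype.

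Bax went with Ftl1 across these cells. In replicate 1 Bax measured 82.5 CPM (exact Poisson 95% interval 78.0 to 87.2, counting error only) in cells with an Ftl1 UMI and 19.6 CPM (17.4 to 22.0) in cells with none, a ratio of 4.21. With the shared barcodes kept the values were 82.0 and 17.8 CPM. In the libraries of the heterozygotes the same values were 145 against 93.5 CPM and 109 against 96.6 CPM. They were 18.2 against 16.2 CPM and 15.2 against 14.5 CPM in the Bax null group, and 13.6 against 10.7 CPM in Bax null Atoh7 null replicate 2. The gap in replicate 1 stood in each cell type: 68.3 against 15.9 CPM in RPCs, 87.3 against 21.9 CPM in neurogenic cells, 133 against 39.3 CPM in cones, 138 against 25.7 CPM in horizontal cells and 136 against 36.1 CPM in ganglion cells. In replicate 2 only 40 cones had an Ftl1 UMI, and Bax measured 87.7 CPM in them and 27.6 CPM in the rest. Cells of 1 library are not replicates, so these values have counting intervals and no test. In the Bax null libraries the split by an Ftl1 UMI also carries the limit set by Gm10116.

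Other neighbours of Bax divided less. For the 16 listed genes with at least 20 CPM in their highest group, Ftl1 left out, the ratio of Ftl1-positive to Ftl1-zero cells in replicate 1 had a median of 1.04 and ran from 0.930 to 1.36. In the other 5 libraries the medians ran from 0.980 to 1.11 and the ratios from 0.870 to 1.45. The highest in replicate 1 was Rcn3, a gene described further on. It measured 23.2 CPM (20.8 to 25.7) in Ftl1-positive cells and 17.0 CPM (14.99 to 19.3) in Ftl1-zero cells. These intervals cover counting error only, and Rcn3 was picked as the highest of the 16 ratios, so the gap was not tested. Its ratio in the other libraries ran from 0.922 to 1.15. Slc17a6, near 52 Mb, was too scarce outside cones to be read. In cones of replicate 1 it measured 53.6 CPM (37.6 to 74.2, 36 UMIs) in 350 Ftl1-positive cells and 13.1 CPM (5.66 to 25.8, 8 UMIs) in 381 Ftl1-zero cells. Gas2 measured 121 CPM (95.8 to 149.9) and 178.5 CPM (146.5 to 215) in the same cells.

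**Figure D2:**
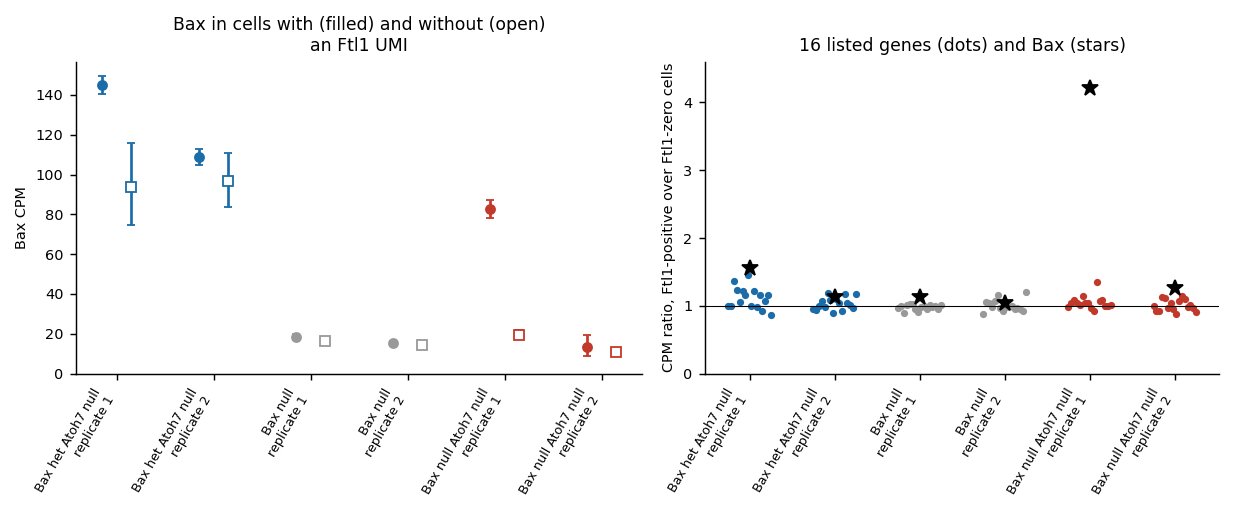
Left, CPM of Bax (y axis) in cells with an Ftl1 UMI (filled circles) and without one (open squares) of each library (x axis), with exact Poisson 95% intervals. Right, the ratio of the 2 levels for 16 listed genes (dots) and Bax (stars): the star of Bax null Atoh7 null replicate 1 is at 4.21 while its dots lie between 0.930 and 1.36.

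The remaining listed genes within 1 Mb of Bax differed little between the double nulls and the heterozygotes. Of the 40 genes, 35 passed the filter on low counts over all cells; Fcgrt, Slc17a7, Tulp2, Fut1 and Sult2b1 did not and stayed at or under 0.346 CPM in every library. Of the 35, 31 had a log2 difference under 0.5 in size, and the median was 0.01, beside 0.00 over all 14284 genes. By edgeR's quasi-likelihood test 2 were called at an adjusted p under 0.05, Bcl2l12 and Slc17a6, both lower in the double nulls, where 1.64% of all genes were called. That count ranged from 0 to 5 when each library was left out in turn and was 0 when only the 4 libraries compared were fitted. The libraries of the groups did not overlap for 17 of the 35, where 41.7% of all genes did not, and the log2 difference was at least 1 in size for 2, Ftl1 and Slc17a6, where 2.2% of all genes had one. By type, edgeR called 3 of 28 listed genes in cones (background 1.46%), 1 of 27 in horizontal cells (1.61%), 1 of 29 in neurogenic cells (1.77%), 3 of 33 in RPCs (2.01%) and 1 of 30 in ganglion cells (2.34%). Since this contrast helped to choose the genes, nothing is read from these counts.

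**Figure D3:**
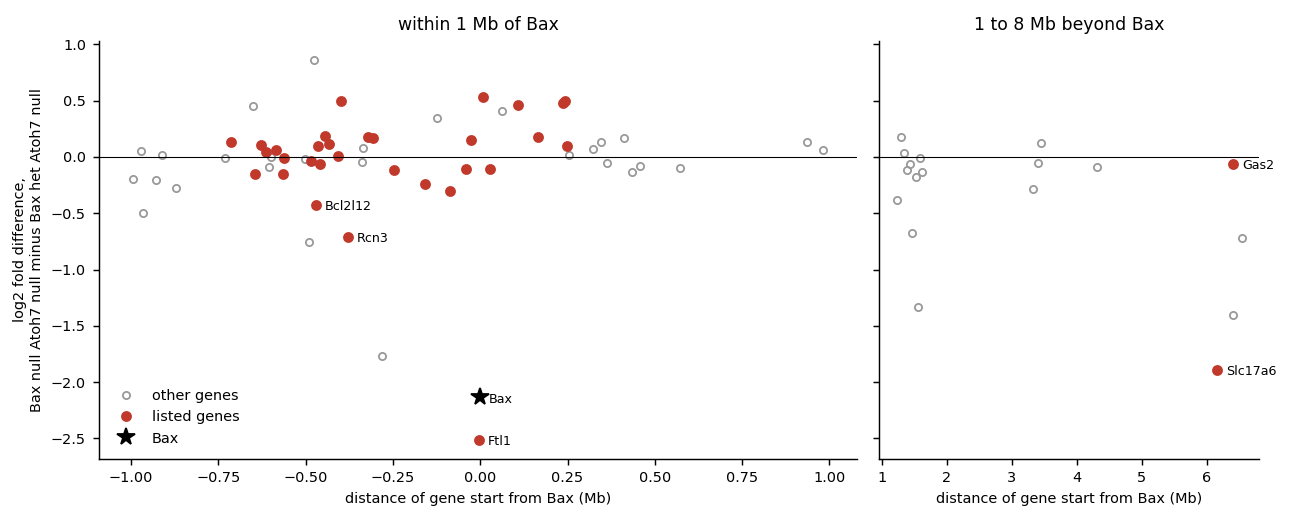
Log2 difference over all cells between the double nulls and the heterozygotes (y axis) against the distance of each gene's start from Bax in Mb (x axis), for genes with a mean of at least 1 CPM in a group. Apart from Ftl1 at -2.51 and Rcn3 at -0.71, the listed genes (red) within 1 Mb lie between -0.42 and 0.53, and Slc17a6 lies at -1.89 beyond 6 Mb.

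Rcn3 encodes a calcium-binding protein of the endoplasmic reticulum. It measured 34.4 and 24.1 CPM in the heterozygotes, 9.81 and 10.5 CPM in the Bax null group, and 19.9 and 18.2 CPM in the double nulls. The groups did not overlap, and the replicates of the double nulls, far apart in Ftl1, were close to each other here. The log2 difference of the double nulls from the heterozygotes was -0.71 (SE 0.16) over all cells and ran from -0.74 in RPCs to -0.27 in cones. Bcl2l12, a relative of the Bcl2 family, measured 49.1 and 46.6 CPM in the heterozygotes, 36.3 and 36.7 CPM in the Bax null group, and 37.0 and 39.4 CPM in the double nulls. Its difference was -0.42 (SE 0.07) over all cells, from -0.76 in ganglion cells to 0.40 in cones. Against Bax null the CPM and the edgeR fits, which scale libraries by TMM and not by total, did not go the same way. In the fits Bcl2l12 was lower in the heterozygotes than in Bax null in all 5 types, with log2 differences of -0.28 to -0.11. The order of Bcl2l12 against Bax null thus depends on the scaling. Its span overlaps Irf3 and Gm15545 on the opposite strand; 23 of the 40 genes overlap another annotated gene, and the sources used here do not say whether counting used the strand.

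At the other end, Nosip measured 35.9 and 44.1 CPM in the heterozygotes and 53.6 and 67.8 CPM in the double nulls, a log2 difference of 0.50 (SE 0.11). Bcat2, the mitochondrial transaminase of branched-chain amino acids, measured 8.96 and 7.89 CPM against 12.1 and 12.7 CPM, a difference of 0.46 (SE 0.10). Dbp, a transcription factor under the control of the circadian clock, measured 6.18 and 7.02 CPM against 10.8 and 8.90 CPM, a difference of 0.50 (SE 0.15). Bcat2 and Dbp were picked out after their values were seen. None of these replicates overlapped between the groups, and each of the differences was under 1.

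Across types, 26 of the 40 genes had counts enough to be fitted in all 5. Ftl1 was the gene among them with a log2 difference of at least 1 in size in all 5 types, where 46 of 8445 genes fitted in all 5 types had one. Of the 26, 5 were lower in all 5 types (Fuz, Prmt1, Rcn3, Snrnp70 and Ftl1), 7 were higher in all 5 (Tbc1d17, Akt1s1, Prr12, Nosip, Pih1d1, Bcat2 and Dbp), and 14 were mixed. The share with 1 direction in all 5 types was 46.2% of the 26 and 33.5% of the 8445. These directions came from the contrast that chose the genes and from libraries shared by all types, and are not tested.

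**Figure D4:**
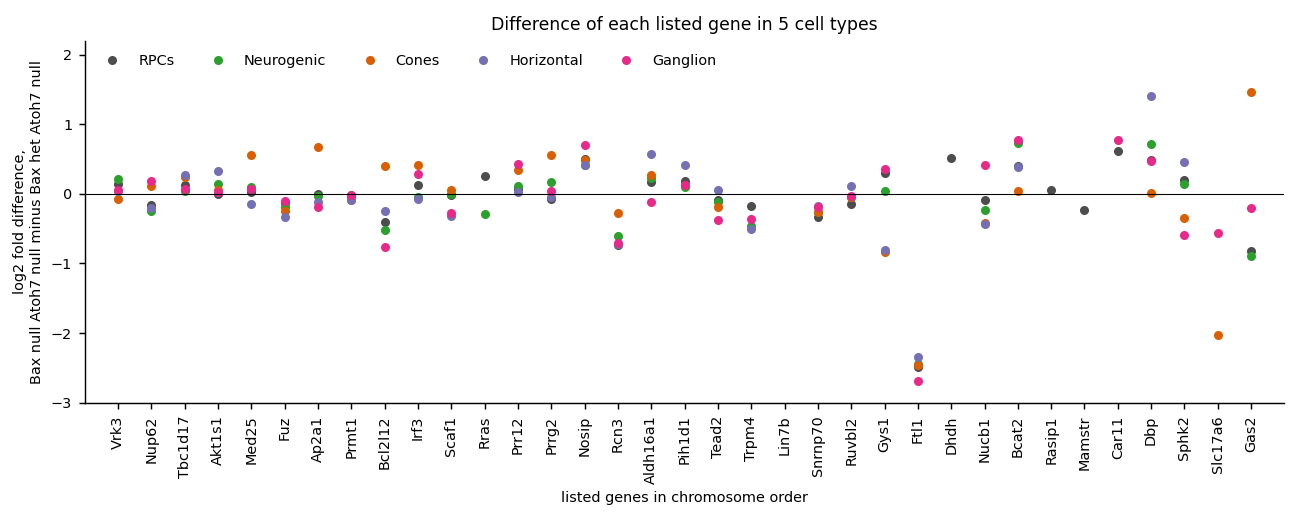
Log2 difference between the double nulls and the heterozygotes (y axis) of each listed gene that could be fitted, in chromosome order (x axis), 1 point per cell type. The 5 points of Ftl1 lie together between -2.70 and -2.35, whereas Gas2 is at 1.46 in cones and at -0.82 in RPCs.

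Genes were also counted by position alone. Of 107 genes of the matrix that lie within 1 Mb of Bax, 38 of them listed genes, 66 passed the filter. Their median log2 difference between the double nulls and the heterozygotes was 0.01. In edgeR 3 were called, where 1.64% of all genes were: Bcl2l12 and Pth2 lower, and Atf5 higher. Pth2 measured 6.07 and 4.64 CPM in the heterozygotes and 1.92 and 1.34 CPM in the double nulls. Atf5, a stress-response transcription factor whose span overlaps that of Nup62, measured 28.6 and 32.5 CPM against 40.6 and 49.5 CPM.

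Gas2 and Slc17a6 lie 6395 and 6155 kb from Bax and had their largest differences between the double nulls and the heterozygotes in cones. Slc17a6 encodes VGLUT2, which loads glutamate into synaptic vesicles and marks young glutamatergic neurons. Gas2 encodes a protein of the actin and microtubule skeleton that caspases cut during cell death. In cones Slc17a6 measured 111.7 and 66.7 CPM in the heterozygotes, 10.0 and 5.25 CPM in the Bax null group, and 31.8 and 10.1 CPM in the double nulls. These rest on 142 and 91, 13 and 6, and 44 and 9 UMIs. Both libraries of the heterozygotes lay above the 4 that are null for Bax by label, and the log2 difference of the double nulls from the heterozygotes was -2.03 (SE 0.31). Without the shared barcodes replicate 1 of the double nulls stood at 34.3 CPM and the difference at -1.96.

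Slc17a6 had a UMI in 16.7% and 9.04% of cones in the heterozygotes, in 2.72% and 1.56% in Bax null, and in 4.79% and 1.40% in the double nulls (shared barcodes left out). With each cone set to 1000 UMIs the shares were 9.82% and 6.29%, 0.961% and 0.392%, and 3.21% and 0.868%. At that depth 46 of 731 and 194 of 641 cones of the double nulls were left out. In Bax null 4 and 1 cones were left out, and in the heterozygotes 0, so the thinned shares rest on unlike parts of the cones. In RPCs, which should lack the gene, the share was 0.0142% to 0.131% at median depths of 1713 to 6977 UMIs, against 1165 to 3854 in cones.

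In ganglion cells the order was another one. Slc17a6 measured 3.13 and 6.03 CPM in the heterozygotes, 14.7 and 14.1 CPM in the Bax null group, and 2.39 and 4.83 CPM in the double nulls. The Bax null libraries, wild type for Atoh7 by label, lay above the 4 others, and the Atoh7 null groups overlapped. Ganglion markers summed to 10965 and 11454 CPM in the ganglion cells of Bax null and to 7060 to 9086 CPM in the other 4 libraries; the part of that, and of the split between the libraries, in the difference was not tested. The difference of the double nulls from the heterozygotes for Slc17a6 was -0.56 (SE 0.47) in ganglion cells.

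Gas2 ran the opposite way in cones. It measured 50.3 and 80.6 CPM in the heterozygotes, 174 and 193 CPM in the Bax null group, and 145 and 255 CPM in the double nulls, so both libraries of the heterozygotes lay under the 4 that are null for Bax by label. The log2 difference of the double nulls from the heterozygotes was 1.46 (SE 0.21), and 1.48 without the shared barcodes, where replicate 1 stood at 148 CPM. In RPCs the order was reversed, with 13.9 and 11.9 CPM in the heterozygotes, 4.59 and 4.03 CPM in the Bax null group, and 7.88 and 7.68 CPM in the double nulls, a difference of -0.82 (SE 0.14). Neurogenic cells followed the RPCs, at 14.8 and 12.4 CPM in the heterozygotes and 8.77 and 6.34 CPM in the double nulls, a difference of -0.89 (SE 0.23). In ganglion cells the groups overlapped, at 6.79 and 4.26 CPM against 6.77 and 3.08 CPM, and horizontal cells had 4 to 9 UMIs per library in these groups.

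The difference of Gas2 in cones exceeded that in RPCs by 2.25 on the log2 scale, and by 2.35 without the shared barcodes. In edgeR's quasi-likelihood interaction of group and cell type, Gas2 was the 1 listed gene called of 31, where 8 of 12180 genes (0.0657%) were called; at an unadjusted p under 0.05 there were 4 of the 31, where 5.61% of all genes were. The interaction uses the contrast that helped to choose the genes, so nothing is read from these counts. Markers of cones summed to 3678 and 3788 CPM in the cones of the heterozygotes, and to 3075 and 3591 CPM in those of the double nulls. RPC markers in the same cones summed to 949 and 1128 CPM and to 1304 and 1051 CPM, and their part in the difference was not tested.

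**Figure D5:**
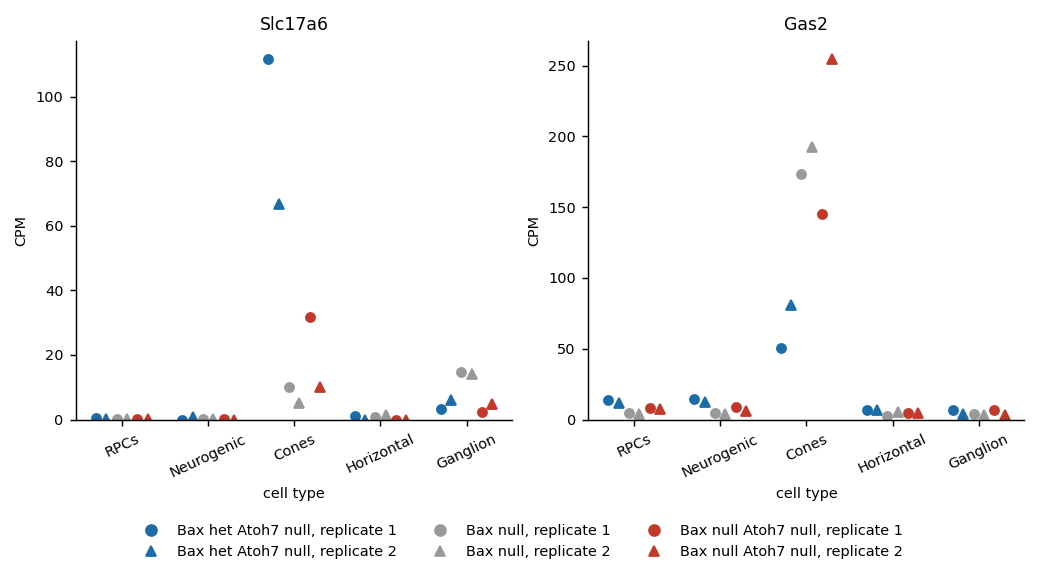
CPM of Slc17a6 and Gas2 (y axes) in 5 cell types (x axis), 1 point per library. In cones the blue heterozygous libraries are the highest of the 6 for Slc17a6 (66.7 and 111.7 CPM) and the lowest for Gas2 (50.3 and 80.6 CPM).

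Windows of 250 bases before the annotated starts of these genes are printed because after Ftl1 they are the listed genes with the largest differences in cones, where the proneural factor Neurod1 and the homeobox factors Otx2 and Crx act. The capitals mark CANNTG, the E-box that proneural factors bind and that reads the same on both strands. The windows lie on the plus strand at chr7:51621580-51621829 and chr7:51624387-51624636 for the starts of Slc17a6 and at chr7:51878717-51878966 for the downstream start of Gas2 (RefSeq, GRCm38.p6).

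Slc17a6, upstream start: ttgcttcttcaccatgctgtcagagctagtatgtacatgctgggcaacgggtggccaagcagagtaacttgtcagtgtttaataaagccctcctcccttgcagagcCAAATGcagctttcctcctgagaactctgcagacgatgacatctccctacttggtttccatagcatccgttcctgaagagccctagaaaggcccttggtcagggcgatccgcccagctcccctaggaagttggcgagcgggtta

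Slc17a6, downstream start: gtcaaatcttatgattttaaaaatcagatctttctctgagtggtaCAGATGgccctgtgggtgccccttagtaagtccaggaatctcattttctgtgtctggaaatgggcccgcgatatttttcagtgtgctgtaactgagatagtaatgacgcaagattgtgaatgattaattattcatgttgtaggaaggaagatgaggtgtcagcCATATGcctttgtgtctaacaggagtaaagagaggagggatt

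Gas2, downstream start: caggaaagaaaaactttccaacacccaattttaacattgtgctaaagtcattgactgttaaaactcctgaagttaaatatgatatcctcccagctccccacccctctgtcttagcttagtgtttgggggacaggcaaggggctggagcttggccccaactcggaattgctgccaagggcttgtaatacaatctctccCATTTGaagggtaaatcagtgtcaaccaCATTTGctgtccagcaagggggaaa

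The windows held 1, 2 and 2 matches, and CANNTG occurred in 66.2% of all 32851 windows. The letters TAATCC, read by Otx2 and Crx, occurred in 6.25% of all windows, in 2 of the 36 listed genes with a window and in none of these 3. The upstream start of Gas2 lies against the overlapping gene Fancf and held no match of either motif.

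Of the 5 genes that could be tested 6 to 8 Mb beyond Bax, the log2 difference between the double nulls and the heterozygotes over all cells was -1.94 for Ano5, -1.89 for Slc17a6, -1.41 for Fancf, -0.72 for Svip and -0.06 for Gas2. Svip, an inhibitor of protein degradation at the endoplasmic reticulum, measured 20.8 and 20.03 CPM against 13.1 and 13.3 CPM. Fancf, of the Fanconi anaemia pathway, measured 1.61 and 1.31 CPM against 0.718 and 0.401 CPM. Ano5, Fancf and Svip were picked out after their values were seen.

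Within libraries, the listed genes differed between cell types about as often as other genes. Against RPCs, 21 of 31 were called in cones (8 higher, 13 lower), where edgeR called 68.9% of 12180 genes (32.2% higher, 36.7% lower). In horizontal cells 20 were called (5 higher, 15 lower; background 66.6%, 30.8% and 35.7%), in neurogenic cells 20 (7 higher, 13 lower; 65.5%, 31.5% and 33.9%), and in ganglion cells 25 (8 higher, 17 lower; 79.8%, 38.4% and 41.3%). Among the 35 genes that passed the filter, 14 were highest in cones, 8 in RPCs, 6 in neurogenic cells, 4 in horizontal cells and 3 in ganglion cells, by the mean over libraries.

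The largest differences from RPCs were those of Slc17a6. It measured 5.25 to 112 CPM (median 20.9) in cones and 2.39 to 14.7 CPM (median 5.43) in ganglion cells, against 0.0513 to 0.459 CPM in RPCs. In both types all 6 libraries were higher than in RPCs. In RPCs the gene did not pass the filter on low counts, so it entered the fit through the types where it is high, and its differences are a description with no test. The counts of 21 and 25 called genes include it. Gas2 measured 50.3 to 255 CPM (median 159.5) in cones against 4.03 to 13.9 CPM in RPCs, a difference of 3.92 (SE 0.11, edgeR adjusted p = 6.1e-36) with all 6 libraries higher.

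Bcl2l12 was lower than in RPCs in cones, horizontal cells and ganglion cells. It measured 10.8 to 20.2 CPM in cones, 8.08 to 20.8 CPM in horizontal cells and 3.95 to 11.5 CPM in ganglion cells, against 41.4 to 55.9 CPM in RPCs. The log2 differences were -1.89 (edgeR adjusted p = 6.3e-20), -1.91 (3.4e-19) and -2.48 (3.8e-31), each in 6 of 6 libraries. Rras, a small GTPase related to Ras, measured 3.73 to 12.02 CPM in RPCs. It was at 2.17 to 8.08 CPM in horizontal cells and 0.955 to 5.57 CPM in ganglion cells, differences of -1.16 and -1.71 with all 6 libraries lower. In horizontal and ganglion cells Rras did not pass the filter on low counts, so these differences are a description with no test. The counts of called genes include it. Trpm4, a calcium-activated cation channel, measured 3.63 to 13.1 CPM in horizontal cells and 2.21 to 4.79 CPM in RPCs, a difference of 1.27 with all 6 libraries higher (edgeR adjusted p = 4.1e-06).

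In neurogenic cells the 3 largest differences were decreases. Dbp measured 2.99 to 6.52 CPM against 7.03 to 12.5 CPM in RPCs, a log2 difference of -1.14 (edgeR adjusted p = 1.2e-13). Rcn3 measured 6.60 to 19.2 CPM against 11.1 to 41.2 CPM, a difference of -1.10 (edgeR adjusted p = 1.9e-18). Car11, a relative of carbonic anhydrases without catalytic activity, measured 1.13 to 1.70 CPM against 1.83 to 3.42 CPM, a difference of -0.89. Car11 did not pass the filter on low counts in neurogenic cells, so its difference is a description with no test. All 6 libraries were lower in each case.

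The comparisons that involve the Bax null libraries carry the split described above. Their log2 differences use TMM scaling and can differ in size and sign from the CPM. Between the heterozygotes and Bax null, 22 of the 35 genes were called over all cells (12 higher in the heterozygotes, 10 lower), where 55.8% of all genes were (28.4% higher, 27.4% lower). Ftl1 was 3.14 (SE 0.92) higher on the log2 scale, and its difference ran from 3.06 to 3.43 in the 5 types, with the limit set by Gm10116. Rcn3 was 1.02 (SE 0.16) higher. Between the double nulls and Bax null, both without Bax by label, 20 of the 35 were called (10 in each direction), where 56.4% of all genes were (28.1% higher in the double nulls, 28.3% lower). These comparisons share libraries with each other and with the first.

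Of genes within 1 Mb that are not in the list, Gm15545 and Rpl18 had at least 20 CPM and a fitted log2 difference of at least 1 in size. For the heterozygotes minus Bax null the differences were -1.41 for Gm15545 and -1.22 for Rpl18. These use TMM scaling, and the CPM of Rpl18 given here differ by less. Rpl18, a ribosomal protein gene that overlaps Sphk2, measured 1598 and 1634 CPM in the heterozygotes, 2637 and 2688 CPM in the Bax null group, and 1851 and 1641 CPM in the double nulls. Gm15545, which overlaps Bcl2l12, measured 8.85 and 15.6 CPM, 20.1 and 25.6 CPM, and 24.7 and 22.6 CPM in the same order.

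Genes that act with Ftl1 and Dbp were read from lists. Of 13 genes of iron handling, 11 were tested, and none was called between the double nulls and the heterozygotes (edgeR, 1.64% of all genes called), with a median log2 difference of -0.17; 1 had an unadjusted p under 0.05, and DESeq2 called 0. Fth1, the ferritin heavy chain, measured 1046 and 996 CPM in the heterozygotes, 1392 and 1239 CPM in the double nulls, and 1362 and 1385 CPM in Bax null; its difference in the first comparison was 0.27 (SE 0.12). Tfrc, the receptor that brings iron into cells, was at -0.24 (SE 0.14), and Ireb2, which senses iron and represses ferritin translation, at -0.17 (SE 0.08). Against Bax null, 1 iron gene was called higher and 3 lower in the heterozygotes, Gm10116 among the latter, where 28.4% of all genes were higher and 27.4% lower. Of 12 clock genes, none was called between the double nulls and the heterozygotes (median 0.12; 3 at an unadjusted p under 0.05 in edgeR, 0 called by DESeq2), while 6 were called higher in the heterozygotes when set against Bax null, where 28.4% of all genes were. Slc17a8, the other vesicular glutamate transporter beside Slc17a6 and Slc17a7, was at most 0.0299 CPM in every library.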

How the data were processed

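The authors deposited a matrix of UMI counts per gene and cell (27998 genes, 93128 cells) and a table of cells with their library, total and cell type; 26078 cells of 2 other libraries were not used. Per the submitters' processing notes, Cell Ranger 1.2.1 and mm10 were used; other settings are not given in the sources used here. Counts were summed per library and cell type, without rescaling. The members and gene lists were chosen with earlier results of these data known.

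Genes passing edgeR's expression filter were fitted with edgeR 4.0.16 (quasi-likelihood, TMM, all 6 libraries, R 4.3.3), and p-values were adjusted by Benjamini-Hochberg over all of them. CPM are counts scaled to 1e6 over the library and cell type. Log2 differences come from the fits with TMM scaling, so against Bax null they can differ from the CPM in size and sign. Cell types and the interaction were fitted over sums per library and type with the library as a term. Values per library are given for Ftl1, Bax, members with at least 20 CPM, a log2 difference of at least 1 and no overlap of libraries between groups, the 3 largest and 3 smallest replicate ratios of Bax null Atoh7 null, members called in the interaction test, and the 3 largest called differences of each type from RPCs; Slc17a6 outside those, Nosip and Bcl2l12 between groups, and Pth2 and Atf5 were added after their values were seen. For genes within 1 Mb outside the list the same level and size applied. The steps were tested on simulated data. Doublets were not called. Replicate numbers were not used to pair the libraries in the main fits. DESeq2 1.42.0, other filters, left-out libraries and left-out shared barcodes were tried as alternatives.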

Additional observations from a re-analysis of the deposited data

Results flagged for a closer look

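Gas2 was singled out because its difference between Bax null Atoh7 null and Bax het Atoh7 null ran in opposite directions in different cell types. The log2 difference was 1.46 in cones, where both Bax null Atoh7 null libraries were higher, and -0.82 in RPCs, where both were lower, so the cones exceeded the RPCs by 2.25. The genes were chosen on this contrast, so the values are a description and the difference was not tested on other libraries.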

How the results depend on the processing

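Between Bax null Atoh7 null and Bax het Atoh7 null, 2 listed genes were called in edgeR and 4 in DESeq2, 0 with only the 4 libraries compared and 1 with the shared barcodes left out, an alternative chosen after seeing the data. Of genes within 1 Mb, 3 were called, against 7, 1 and 1 under the same alternatives. Leaving out 1 library in turn gave 0 to 5 listed genes and 0 to 8 genes within 1 Mb: 0 without either library of Bax het Atoh7 null or of Bax null, and the higher counts without either library of Bax null Atoh7 null. For Bax het Atoh7 null against Bax null the counts of 22 and 40 ranged over 13 to 22 and 25 to 42, and for Bax null Atoh7 null against Bax null those of 20 and 36 ranged over 10 to 20 and 19 to 36, in each case lowest without a Bax null library. A window of 0.5 Mb gave 23 calls in the last comparison. The causes of these changes were not tested, apart from the smaller window, which holds fewer genes.

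The count of 20 listed genes that differed between neurogenic cells and RPCs was 13 with counts thinned to the smallest total. Bax in Ftl1-positive cells of Bax null Atoh7 null replicate 1 measured 99.4 CPM where a positive cell needed 2 UMIs, and the replicate ratio of Ftl1 was 13.5 without the shared barcodes. Gas2 was the 1 gene called in the interaction under every alternative run. The Gas2 difference over all cells between Bax null Atoh7 null and Bax het Atoh7 null, -0.06 (SE 0.10), was 0.01 with the 5% of cells with the most UMIs left out and 0.03 without replicate 1 of Bax null Atoh7 null, each smaller than its SE.

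Replicate numbers correlated at -0.03, 0.24 and -0.21 between the 3 pairs of groups over 4480 genes. The value of 0.24 is that of Bax het Atoh7 null and Bax null Atoh7 null, the groups of the main comparison. In both of these groups Hbb-y was higher in replicate 1 than in replicate 2. Whether libraries with the same number share a batch is not given in the labels and was not tested. With the replicate block the calls for Bax null Atoh7 null against Bax het Atoh7 null were 4 listed genes and 5 within 1 Mb. The block was not run for cell types and the interaction, where the library is already a term.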
